A study of Mus musculus with 5 samples.

Results

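The collagen genes are the rows of the deposited expression table whose gene name has the form Col, a type number, a and a chain number. There were 42 of them among 17015 genes, and they were sorted into 11 fibrillar, 8 basement membrane and 23 other collagen genes. RNA-seq of the tibialis anterior (TA), a fast-twitch leg muscle, was done in male mice at 8 weeks of age, giving 3 WT control and 2 skmNrip1-/- libraries in the table. The study's legend gives 3 mice per group, but only 2 skmNrip1-/- libraries were available here. In the skmNrip1-/- mice, Cre recombinase driven by the myogenin promoter, which is active in differentiating muscle cells, acts on an Nrip1 fl/fl allele (C57BL/6J) whose loxP sites flank the last exon. Nrip1 encodes RIP140, a nuclear receptor co-regulator, and the WT controls were Cre-negative littermates. The comparison asks which transcripts differ in a fast-twitch muscle when the muscle fibres lack RIP140, here for the genes of the collagen matrix.

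Collagens are secreted proteins wound from chains into a helix, and they form most of the connective tissue around muscle fibres, fascicles and tendons. Fibrillar collagens assemble into tensile fibrils. Basement membrane collagens form the sheet-like network that coats each fibre and capillary, and other collagens bind to fibrils, form microfilaments next to the basement membrane, anchor membranes or span the cell membrane. In muscle, fibroblasts, fibro-adipogenic progenitors and tendon cells make most fibrillar collagen, and endothelial cells and muscle cells contribute to the basement membrane. In whole muscle, fewer cells of a type and less RNA per cell cannot be told apart.

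No collagen gene passed the test between the groups. Levels are the FPKM deposited by the authors, fragments per kilobase of transcript with a scaling between libraries that is not stated. The sum over all genes ran from 969144 FPKM in WT control replicate 3 to 1288038 FPKM in skmNrip1-/- replicate 1. Differences are log2 fold changes of skmNrip1-/- over WT control on log2(FPKM + 0.1) with their standard error (SE), tested with limma in those 12148 genes whose mean reached 0.5 FPKM. Calls needed a Benjamini-Hochberg adjusted p of 0.05 or less together with a fold change of at least 1.2. Of all genes tested, 45 were called higher (0.37%) and 10 lower (0.0823%). Of the 42 collagen genes, 25 passed the minimum, and 0 of these were called in either direction. At an unadjusted p of 0.05 or less, which 11.9% of all genes met, the count was also 0 of 25. The smallest adjusted p of a collagen gene was 0.484, for Col5a3. The 2 groups did not overlap in 3 of the 25 genes, against 30.2% of all genes: Col5a3 and Col15a1 were lower and Col9a1 was higher in both skmNrip1-/- libraries than in each WT control library.

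Nrip1 itself went against the labels. It was 4.64, 7.69 and 6.55 FPKM in WT control and 25.3 and 22.5 FPKM in skmNrip1-/- libraries, a log2 fold change of 1.94 (SE 0.21, limma adjusted p = 0.0261). The call was lost without WT control replicate 3 or either skmNrip1-/- library. In the study, Nrip1 expression and a RIP140 blot of this mouse line were shown for gastrocnemius and heart. An FPKM value per gene does not separate the floxed exon from the rest of the transcript, so it does not check the deletion. The group is therefore named by the label of its libraries, and each direction given below rests on those labels. The muscle markers Acta1, Ckm and Myh4 were abundant, at 6416 to 21925 FPKM. Transcripts of the mitochondrial genome took 45.4 to 50.7% of the summed FPKM in WT control and 58.6 and 60.9% in skmNrip1-/- libraries. The relative depth of the libraries, read from the smallest FPKM steps, was 0.82 to 1.11 of that of WT control replicate 1, and the lowest value belonged to skmNrip1-/- replicate 1. It stands for depth only if the FPKM were scaled by the reads of each library, which is not stated.

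Collagen transcripts were a small part of the total, between 0.0164 and 0.0311% of all FPKM. Their summed level was 208, 264 and 301 FPKM in WT control and 211 and 362 FPKM in skmNrip1-/- libraries. On the deposited scale, 1 skmNrip1-/- library therefore sat beside the lowest control and the other above the highest. As a share of all FPKM, the sum was 0.0182, 0.0256 and 0.0311% in WT control and 0.0164 and 0.0281% in skmNrip1-/- libraries. There skmNrip1-/- replicate 1 was below all controls and replicate 2 inside their range. Without transcripts of the mitochondrial genome the shares were 0.0344, 0.0519 and 0.0569% against 0.0397 and 0.0719%, with replicate 2 above the controls. Col1a1, Col1a2 and Col3a1, the chains of collagens I and III that build most fibrils of the muscle connective tissue, held 49.4 to 63.6% of the collagen sum. With Col4a1, Col4a2, Col6a1, Col6a2 and Col6a3 added, these 8 genes held 79.4 to 84.0%. The fibrillar share of the sum was 56.4, 64.2 and 59.6% in WT control and 55.1 and 69.2% in skmNrip1-/- libraries.

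**Figure D1:**
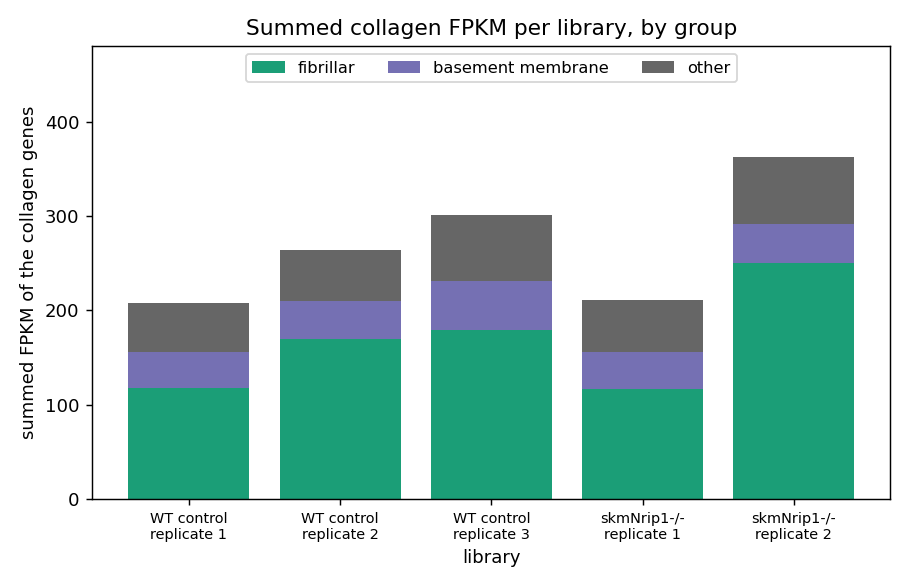
Summed FPKM of all 42 collagen genes in each library, stacked by group (fibrillar, basement membrane, other). The fibrillar block is 117 FPKM in skmNrip1-/- replicate 1 and 250 FPKM in replicate 2, while the basement membrane block is 38.9 and 41.2 FPKM.

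**Figure D2:**
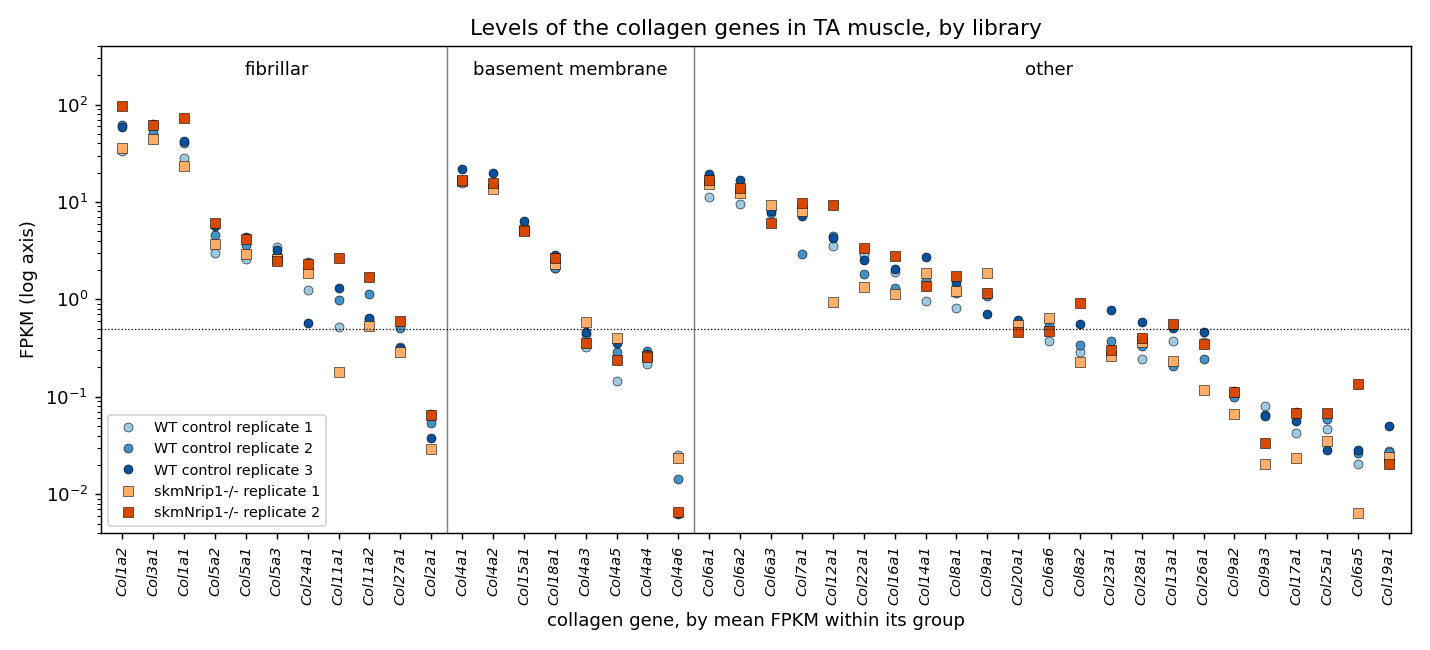
FPKM on a log axis of each collagen gene in each library, with circles for WT control (n = 3) and squares for skmNrip1-/- (n = 2), ordered by mean within the groups. The dotted line marks 0.5 FPKM, the minimum applied to the mean. Levels run from Col1a2, Col3a1 and Col1a1 above 20 FPKM to Col4a6 and Col19a1 under 0.1 FPKM in each library.

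Col1a2 and Col3a1 were the most abundant fibrillar genes. Col1a2 (chromosome 6, 4504814 to 4541544, GENCODE M21 on GRCm38) encodes the alpha 2 chain of collagen I and had the higher mean over all 5 libraries, while Col3a1 was the higher in 3 of the 5 libraries and in the WT control mean (52.5 against 51.3 FPKM). The start region of Col1a2 is shown as that of an abundant fibril gene in which the skmNrip1-/- libraries lay far apart. It is the RefSeq promoter window on GRCm38.p6, chr6:4505368-4505667, plus strand, 250 bases before to 50 after the RefSeq start site, with capitals for the 2 matches to CCAAT, the first on the printed strand and the second on the other strand. The RefSeq start site, base 4505618, lies inside the longer GENCODE gene:
Col1a2: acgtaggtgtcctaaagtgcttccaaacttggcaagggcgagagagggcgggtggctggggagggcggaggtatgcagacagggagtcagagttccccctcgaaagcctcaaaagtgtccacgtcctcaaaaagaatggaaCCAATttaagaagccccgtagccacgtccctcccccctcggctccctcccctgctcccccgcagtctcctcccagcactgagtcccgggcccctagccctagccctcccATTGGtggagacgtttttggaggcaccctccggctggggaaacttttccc
CCAAT, searched on both strands, occurs in 12 of the 33 collagen genes with a RefSeq window and in 37.4% of all 32851 windows. GGGCGG occurs in 21 of the 33 and 35.7%, and TATAAA in 4 of the 33 and 13.6%.

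In collagen I the 2 skmNrip1-/- libraries lay well apart. Col1a2 stood at 33.2, 62.3 and 58.5 FPKM in WT control and at 36.2 and 97.0 FPKM in skmNrip1-/- libraries. Col1a1, the alpha 1 chain, stood at 28.5, 40.2 and 41.8 FPKM and at 23.6 and 72.0 FPKM. In both genes skmNrip1-/- replicate 2 was the highest of the 5 libraries, while replicate 1 was below all controls for Col1a1 and above the lowest control for Col1a2. The log2 fold change was 0.26 for Col1a2 (SE 0.45, 95% interval -0.81 to 1.33, limma adjusted p = 0.878) and 0.18 for Col1a1 (SE 0.44, -0.87 to 1.24, adjusted p = 0.913). For Col1a1 it was 0.99 without skmNrip1-/- replicate 1 and -0.62 without replicate 2, and for Col1a2 0.97 and -0.45. Col1a2 was above Col1a1 in all 5 libraries, at 1.17, 1.55 and 1.40 times the Col1a1 level in WT control and at 1.53 and 1.35 times in skmNrip1-/- libraries.

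Col3a1, the single chain of collagen III, varied much less. It was 43.9, 50.6 and 63.1 FPKM in WT control and 44.7 and 61.3 FPKM in skmNrip1-/- libraries. Both skmNrip1-/- values lay inside the control range, and the log2 fold change was 0.01 (SE 0.20, 95% interval -0.46 to 0.48, limma adjusted p = 0.991). Col3a1 was above Col1a1 in 4 libraries, by 1.26 to 1.89 times, and below it in skmNrip1-/- replicate 2, at 0.85 times.

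Collagen V chains nucleate collagen I fibrils and set their width. Col5a2 was 2.99, 4.59 and 5.67 FPKM in WT control and 3.69 and 6.08 FPKM in skmNrip1-/- libraries (log2 fold change 0.15, SE 0.31). Col5a1 was 2.59, 3.66 and 4.37 FPKM against 2.93 and 4.18 FPKM. The 2 skmNrip1-/- libraries fell inside the control range for Col5a1. For Col5a2, replicate 2 was just above it. Col5a3, a less common chain, did not follow them: it was 3.48, 2.83 and 3.23 FPKM in WT control and 2.59 and 2.50 FPKM in skmNrip1-/- libraries. This was the lowest log2 fold change among the tested fibrillar genes, -0.30 (SE 0.14, 95% interval -0.65 to 0.04), with an unadjusted p of 0.0771 and a limma adjusted p of 0.484, and it kept its sign without any 1 library (-0.38 to -0.24).

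The minor fibrillar collagens were the least steady. Collagen XI, best known from cartilage fibrils, had Col11a1 at 0.522, 0.991 and 1.29 FPKM in WT control and at 0.181 and 2.68 FPKM in skmNrip1-/- libraries. The skmNrip1-/- libraries thus lay on either side of all 3 controls, and the 95% interval of the log2 fold change ran from -2.32 to 2.02. Col11a2 was 0.629, 1.14 and 0.645 FPKM against 0.535 and 1.71 FPKM, again with the controls in between. Col24a1, a fibrillar collagen of developing bone, had the highest log2 fold change of the group, 0.72 (SE 0.51, 95% interval -0.51 to 1.95, limma adjusted p = 0.654), from 1.26, 2.43 and 0.567 FPKM to 1.85 and 2.33 FPKM, inside the control range. Col27a1 (0.288 to 0.596 FPKM) and Col2a1, the main cartilage collagen (0.0292 to 0.067 FPKM), were under the minimum.

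In the basement membrane group, Col4a1 and Col4a2 encode the chains of the collagen IV network found in nearly all basement membranes. Both lie on chromosome 8, on opposite strands, with starts facing away from each other: Col4a1 from 11198423 to 11312826 on the minus strand and Col4a2 from 11312805 to 11449287 on the plus strand, with 22 bases shared at their 5′ ends in GENCODE M21. Their RefSeq windows on GRCm38.p6 are shown as those of 2 abundant genes that share bases at their starts. Capitals mark the 78 bases that both windows hold, in opposite orientation. The Col4a1 window is chr8:11312777-11313076 on the minus strand and the Col4a2 window chr8:11312555-11312854 on the plus strand:
Col4a1: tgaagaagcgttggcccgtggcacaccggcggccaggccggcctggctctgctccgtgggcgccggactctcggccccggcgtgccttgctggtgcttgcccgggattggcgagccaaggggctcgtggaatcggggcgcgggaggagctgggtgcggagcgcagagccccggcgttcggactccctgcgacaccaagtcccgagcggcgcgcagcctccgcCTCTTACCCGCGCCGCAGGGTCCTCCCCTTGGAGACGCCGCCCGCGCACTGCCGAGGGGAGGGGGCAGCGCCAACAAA
Col4a2: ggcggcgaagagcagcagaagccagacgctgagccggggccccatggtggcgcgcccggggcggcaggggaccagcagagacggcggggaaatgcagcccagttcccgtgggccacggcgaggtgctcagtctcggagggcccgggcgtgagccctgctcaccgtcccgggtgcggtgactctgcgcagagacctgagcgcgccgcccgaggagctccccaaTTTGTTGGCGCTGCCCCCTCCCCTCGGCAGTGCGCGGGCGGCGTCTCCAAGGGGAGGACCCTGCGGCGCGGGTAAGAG
The RefSeq start sites are 21 bases apart. The Col4a2 window holds CCAAT starting 32 bases before its start site. The Col4a1 window holds a different match, on the other strand and outside the shared bases.

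Col4a1 was 15.7, 16.8 and 21.7 FPKM in WT control and 16.4 and 16.9 FPKM in skmNrip1-/- libraries. Col4a2 was 14.8, 15.5 and 19.9 FPKM and 13.7 and 15.8 FPKM. WT control replicate 3 was the highest library for both, and the ratio of Col4a1 to Col4a2 stayed at 1.06 to 1.09 in WT control and was 1.2 and 1.07 in skmNrip1-/- libraries. The log2 fold changes were -0.10 (SE 0.16, 95% interval -0.47 to 0.27) for Col4a1 and -0.17 (SE 0.16, -0.55 to 0.21) for Col4a2, with limma adjusted p of 0.862 and 0.746. Col4a2 had the lowest log2 fold change of the group, and Col4a1 changed sign, to 0.04, without WT control replicate 3. The reads of the 22 shared bases cannot be assigned to 1 of the 2 genes unless strand was used in the counting, which is not stated.

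Collagens XV and XVIII sit in the zone where the basement membrane meets the interstitial matrix, and the end of the collagen XVIII chain is released as endostatin. Col15a1 was 5.32, 5.52 and 6.31 FPKM in WT control and 5.20 and 5.02 FPKM in skmNrip1-/- libraries. The groups did not overlap, but the gap between 5.32 and 5.20 was small beside the control spread, and the log2 fold change was -0.16 (SE 0.13, 95% interval -0.46 to 0.15, limma adjusted p = 0.703). Col18a1, with the highest, was 2.12, 2.12 and 2.84 FPKM against 2.32 and 2.63 FPKM, a log2 fold change of 0.08 (SE 0.18) that lay at -0.01 without skmNrip1-/- replicate 2. The other collagen IV chains, which serve specialised membranes such as that of the kidney glomerulus, were under the minimum, with Col4a3 at 0.324 to 0.59, Col4a4 at 0.217 to 0.295, Col4a5 at 0.146 to 0.401 and Col4a6 at 0.00633 to 0.0255 FPKM. They too lie in head-to-head pairs, Col4a4 and Col4a3 with 71 bases between them on chromosome 1 and Col4a6 and Col4a5 with 1308 on chromosome X.

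Collagen VI, whose chains form beaded microfilaments linking the basement membrane to the surrounding matrix and whose mutations cause muscle disease, led the other group. Col6a1 was 11.2, 15.7 and 19.5 FPKM in WT control and 15.3 and 16.9 FPKM in skmNrip1-/- libraries. Col6a2 was 9.47, 12.8 and 16.9 FPKM against 12.4 and 13.9 FPKM. In these 2 neighbours on chromosome 10, both skmNrip1-/- libraries lay inside the control range, and Col6a1 held at 1.16 to 1.24 times Col6a2 in all 5 libraries. The log2 fold changes were 0.09 (SE 0.23, 95% interval -0.45 to 0.64) and 0.04 (SE 0.23, -0.51 to 0.60), with limma adjusted p of 0.913 and 0.969.

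Col6a3, the longest chain of the common collagen VI molecule, was 8.46, 7.77 and 8.12 FPKM in WT control and 9.22 and 6.12 FPKM in skmNrip1-/- libraries. The controls were nearly level and the skmNrip1-/- libraries lay on either side of them. Col6a1 was 1.32, 2.02 and 2.40 times Col6a3 in WT control and 1.66 and 2.76 times in skmNrip1-/- libraries. Col6a6, a chain that can take its place, was 0.37, 0.532 and 0.623 FPKM against 0.642 and 0.478 FPKM, and Col6a5 was at 0.136 FPKM or less.

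The FACIT collagens coat fibrils without forming them. Col12a1, abundant in tendon and fascia, had the widest gap of the group: it was 3.51, 4.48 and 4.31 FPKM in WT control and 0.945 and 9.33 FPKM in skmNrip1-/- libraries. One skmNrip1-/- library was far below and the other far above 3 controls that were close together. Its log2 fold change of -0.41 (SE 0.81, 95% interval -2.35 to 1.53, limma adjusted p = 0.894) was the lowest of the group and became 1.18 without skmNrip1-/- replicate 1. Col22a1, found at the junction of muscle with tendon, was 2.86, 1.84 and 2.55 FPKM against 1.34 and 3.36 FPKM, and Col16a1, a minor fibril-associated collagen, was 1.91, 1.29 and 2.07 FPKM against 1.13 and 2.81 FPKM.

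Not all FACIT genes behaved in this way. Col14a1, a fibroblast collagen that binds decorin-coated fibrils, was 0.957, 1.53 and 2.71 FPKM in WT control and 1.86 and 1.36 FPKM in skmNrip1-/- libraries, inside the control range. Col9a1 was 1.16, 1.09 and 0.707 FPKM against 1.86 and 1.18 FPKM. The groups did not overlap by a margin of 1.16 to 1.18 FPKM, and the log2 fold change of 0.57 (SE 0.29, 95% interval -0.14 to 1.27, limma adjusted p = 0.52) was 0.26 without skmNrip1-/- replicate 1. Its partner chains in cartilage collagen IX, Col9a2 and Col9a3, were at 0.116 FPKM or less, and Col20a1 was between 0.457 and 0.619 FPKM.

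Col7a1, the anchoring fibril collagen of skin, had the highest log2 fold change among these other collagens. It was 8.86, 2.92 and 7.17 FPKM in WT control and 8.09 and 9.75 FPKM in skmNrip1-/- libraries. The difference, 0.63 (SE 0.44, 95% interval -0.42 to 1.67, limma adjusted p = 0.647), rested on the low value of WT control replicate 2, without which it was 0.15. Col8a1, a network collagen of vessels, was 0.818, 1.15 and 1.47 FPKM against 1.21 and 1.74 FPKM, and Col8a2 was under the minimum at 0.228 to 0.915 FPKM.

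Transmembrane collagens Col13a1 and Col25a1, together with Col19a1, are known from nerve and muscle contacts. Col13a1 was 0.375, 0.209 and 0.504 FPKM in WT control and 0.234 and 0.559 FPKM in skmNrip1-/- libraries. Col25a1 was 0.0472, 0.0586 and 0.0283 FPKM against 0.0348 and 0.0683 FPKM, and Col19a1 was 0.0276, 0.0269 and 0.05 FPKM against 0.0241 and 0.0203 FPKM. All 3 were under the minimum and were not tested. The same held for Col17a1, Col23a1, Col26a1 and Col28a1, which were at 0.0237 to 0.778 FPKM. Fitted without a minimum, 0 of the 17 genes left out were called, 0 had an unadjusted p of 0.05 or less, and the lowest limma adjusted p was 0.535, for Col9a3. The 17 genes not tested had means from 0.0153 to 0.466 FPKM, and the tested gene nearest to the minimum was Col6a6 with a mean of 0.529 FPKM.

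**Figure D3:**
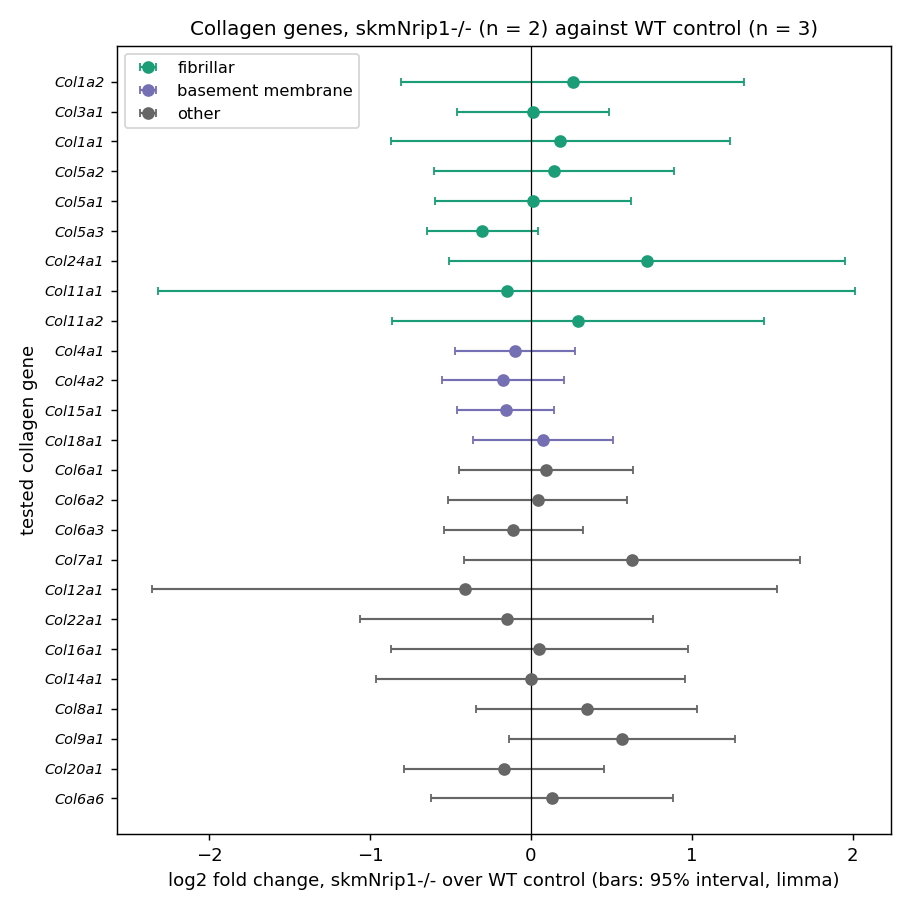
Log2 fold change of skmNrip1-/- (n = 2) over WT control (n = 3) for the 25 tested collagen genes, with bars for the 95% interval from limma, ordered by mean level within fibrillar, basement membrane and other. Each bar crosses 0, and the bars are longest for Col11a1 and Col12a1 and short for Col15a1, Col5a3, Col4a1 and Col4a2.

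As a list, the 25 tested genes centred on a median of 0.04 (log2 fold change), with 15 above and 10 below 0, beside a median of -0.00 over all genes tested. The median was 0.15 in the 9 fibrillar genes (7 above 0), -0.13 in the 4 basement membrane genes (1 above 0) and 0.05 in the 12 others (7 above 0). The fibrillar median was 0.88 without skmNrip1-/- replicate 1, -0.28 without replicate 2 and -0.10 without WT control replicate 1, so its sign rested on single libraries. What differed more than the medians was the precision. The median SE was 0.44 for fibrillar, 0.16 for basement membrane and 0.30 for other collagen genes, beside 0.16 for all genes tested. The intervals of the 4 basement membrane genes stayed within -0.55 and 0.51. Among the fibrillar genes, those of Col5a3 (-0.65 to 0.04) and Col3a1 (-0.46 to 0.48) were about as narrow, and those of Col1a1 and Col1a2 reached 1.24 and 1.33.

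For some collagens the 2 skmNrip1-/- libraries lay further apart than the controls. Their gap was wider than the WT control range in 9 of the 25 tested genes, and the control range was the wider one in the other 16, such as Col24a1 (1.92 against 0.32 on the log2 scale) and Col7a1 (1.57 against 0.27). A range over 3 libraries tends to be wider than a gap between 2, and the share over all genes was not counted. Replicate 2 exceeded replicate 1 by at least 1 on the log2 scale in 7 of the 25 tested genes, against 1.33% of all genes, and the reverse gap was found in 0 of 25, against 1.35%. The 7 genes were Col11a1, Col12a1, Col1a1, Col11a2, Col1a2, Col22a1 and Col16a1, which are 4 of the 9 fibrillar, 0 of the 4 basement membrane and 3 of the 12 other genes. For Col11a1 the gap was 3.30 and for Col12a1 3.17 on the log2 scale, the 19th and 20th largest of 12148. In 6 of the 25 genes, the 7 without Col1a2, replicate 1 was below and replicate 2 above all 3 controls, against 2.94% of all genes. Replicate 2 was the highest of the 5 libraries in 10 of the 25, against 18.9%.

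A different order held in the control libraries. Of the 3 WT controls, replicate 1 was the lowest in 17 of the 25 genes, against 36.6% of all genes, and replicate 3 was the highest in 16 of the 25, against 27.3%. All 4 tested basement membrane genes were in both counts. The genes share their libraries, so these counts describe 5 libraries and are no test of a condition.

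**Figure D4:**
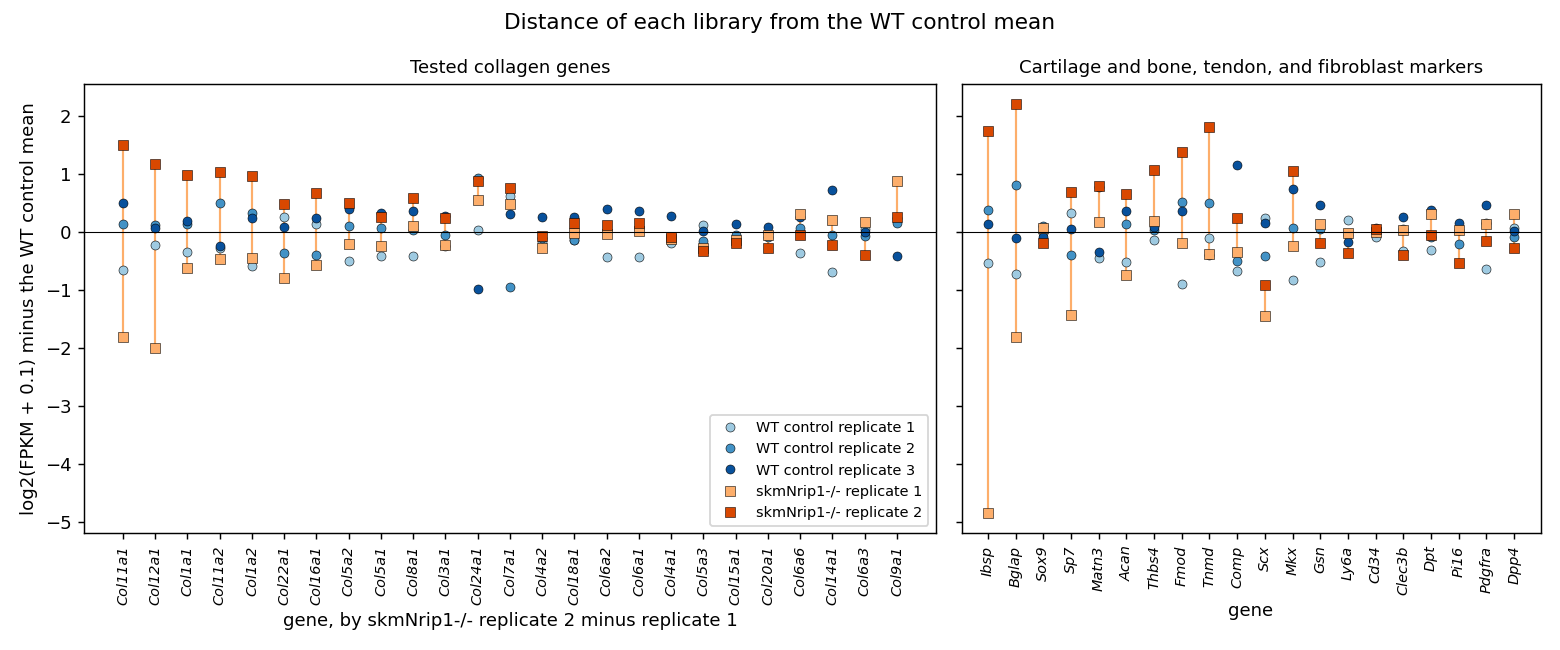
Distance of each library from the WT control mean on the log2(FPKM + 0.1) scale, for the 25 tested collagen genes ordered by skmNrip1-/- replicate 2 minus replicate 1 (left) and for the cartilage and bone, tendon, and fibroblast markers (right). Lines join the 2 skmNrip1-/- libraries. The joined squares lie far apart for Col11a1 and Col12a1 and for Ibsp, and close together for Col4a1 and Col15a1.

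The bone marker Ibsp showed the same split between the skmNrip1-/- libraries as Col1a1, Col11a1 and Col12a1. Tendon markers were mixed. Ibsp, which encodes bone sialoprotein, was 3.0, 5.76 and 4.88 FPKM in WT control and 0.0568 and 15.0 FPKM in skmNrip1-/- libraries. The summed level of the 6 cartilage and bone markers was 3.65 to 6.92 FPKM in WT control and 0.419 and 17.5 FPKM in skmNrip1-/- libraries, with 5 of the 6 under the minimum. Ibsp alone gave 3.0, 5.76 and 4.88 FPKM of the control sums and 15.0 FPKM of the sum in skmNrip1-/- replicate 2. Acan (cartilage), Bglap and Sp7 (bone) were listed at 0 in skmNrip1-/- replicate 1 and were 0.162, 1.53 and 0.334 FPKM in replicate 2. Sox9, a cartilage transcription factor, ran the other way, at 0.298 and 0.234 FPKM beside 0.258 to 0.307 FPKM in WT control, and Matn3 was 0.0643 and 0.154 FPKM beside 0.00749 to 0.15 FPKM.

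The summed level of the 6 tendon markers was 46.2 to 71.1 FPKM in WT control and 56.4 and 128 FPKM in skmNrip1-/- libraries. Tnmd, a tendon membrane protein, was 3.14, 4.84 and 2.55 FPKM in WT control and 2.58 and 12.2 FPKM in skmNrip1-/- libraries, and Fmod, a fibril-binding proteoglycan, was 9.49, 25.2 and 22.8 FPKM against 15.4 and 46.3 FPKM. In both, replicate 2 was above all controls and replicate 1 inside their range, as it was for Mkx, a tendon transcription factor under the minimum (0.115 to 0.537 FPKM against 0.223 and 0.692 FPKM). Thbs4, a tendon matrix protein, was above the controls in both skmNrip1-/- libraries (26.4, 30.1 and 31.1 FPKM against 33.4 and 61.5 FPKM), and Comp lay inside the control range in both. Scx, which specifies tendon cells, was below the controls in both: it was 4.25, 2.65 and 3.98 FPKM against 1.25 and 1.84 FPKM (log2 fold change -1.18, limma adjusted p = 0.167). How far bone and tendon tissue in a sample contributed to the collagen values was not tested.

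The summed levels of fibroblast and vessel wall markers did not show this split. The summed level of the 8 fibro-adipogenic and fibroblast markers was 186, 233 and 287 FPKM in WT control and 248 and 199 FPKM in skmNrip1-/- libraries, with replicate 2 the lower of the pair. Among the controls, the sum was lowest in replicate 1 and highest in replicate 3, the order of Col4a1 and Col6a1. Gsn alone gave 96.3, 143 and 191 FPKM of these control sums. Pdgfra, Cd34, Clec3b and Dpt had the same order. Ly6a ran in reverse, at 42.9, 36.1 and 33.0 FPKM, and Dpp4 and Pi16 were lowest in replicate 2. The 6 macrophage markers summed to 11.6, 17.1 and 25.3 FPKM against 19.2 and 13.8 FPKM, with control replicate 1 again the lowest and replicate 3 the highest. The 6 endothelial markers summed to 73.6 and 84.4 FPKM in skmNrip1-/- libraries, inside or just below the control range of 78.3 to 90.2 FPKM, and 1 of them, Tek, had replicate 1 below and replicate 2 above the controls (5.17, 6.92 and 5.21 FPKM against 4.91 and 7.16 FPKM). The sum was 143 to 157 FPKM for the 6 pericyte and smooth muscle markers over all 5 libraries. The Schwann cell markers summed to 23.9 to 40.2 FPKM and the adipocyte markers to 7.91 to 14.3 FPKM. Of the fast fibre markers 0 of 8 and of the slow fibre markers 0 of 6 were called, against 0.37% higher and 0.0823% lower of all genes. The fast markers lay below 0 in 7 of 8, with the lowest for Actn3 (-0.77, limma adjusted p = 0.169). The slow markers were split, with 4 above 0 and 2 below. Their ends were Myl2 at 3.46 (limma adjusted p = 0.127) and Myl3 at -1.24 (adjusted p = 0.359). Myl3 was 89.6, 124 and 285 FPKM in WT control and 54.1 and 71.3 FPKM in skmNrip1-/- libraries. The part of all these markers in the collagen values was not tested.

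The genes that make, process and bind collagen were counted in 7 lists, and 0 of their tested members were called in either direction, against 0.37% higher and 0.0823% lower of all genes. Hydroxylases and chaperones modify and fold the chains in the endoplasmic reticulum. Of 18 tested, 13 lay below 0 and 5 above, with a median log2 fold change of -0.11, and at an unadjusted p of 0.05 or less P3h4 was higher and P4hb and Plod3 were lower. The ends were P3h4, a partner of collagen lysyl hydroxylation, at 2.24, 2.20 and 2.11 FPKM against 3.93 and 3.15 FPKM (0.66, limma adjusted p = 0.179), and Plod3, a lysyl hydroxylase, at 7.01, 6.92 and 5.94 FPKM against 4.53 and 5.69 FPKM (-0.37, adjusted p = 0.396). In both genes the groups did not overlap, as in 30.2% of all genes tested and in P4ha1, P4hb, Crtap and Colgalt1 of this list.

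Propeptide cleavage and cross-linking enzymes finish the fibril outside the cell. Of 8 tested, 4 lay on each side of 0, from Loxl1 at -0.33 to Lox at 0.39, both of them cross-linking oxidases. Among the proteoglycans and fibril-associated proteins, which regulate fibril growth, 12 of 15 lay above 0 with a median of 0.14. The lean came from 1 library: the median log2 distance from the WT control mean was -0.04 in skmNrip1-/- replicate 1 and 0.53 in replicate 2. Their ends were Kera, a keratan sulfate proteoglycan, at 0.97 and Postn, a matrix protein of tendon and periosteum, at -0.45. Kera was 0.71, 1.60 and 0.503 FPKM in WT control and 0.582 and 4.89 FPKM in skmNrip1-/- libraries (SE 0.84, limma adjusted p = 0.726), with replicate 1 inside the control range. Postn was 8.81, 8.66 and 6.84 FPKM in WT control and 1.65 and 20.3 FPKM in skmNrip1-/- libraries, the split seen in Col12a1.

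The degradation list held collagenases and their inhibitors. Of 10 tested, 7 lay below 0 with a median of -0.06, from Mmp13 at -1.47 to Mmp14, a membrane-bound collagenase, at 0.42. Mmp13, a collagenase of bone and cartilage, was 2.01, 5.70 and 4.36 FPKM in WT control and 0.0842 and 10.1 FPKM in skmNrip1-/- libraries. Ctsk, the collagen-degrading protease of osteoclasts, named after its values were seen, was 5.07, 7.82 and 11.7 FPKM against 3.92 and 21.7 FPKM. Both had the low and high skmNrip1-/- libraries on either side of the controls.

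Collagen receptors had 6 of 8 tested members below 0. The ends were Ddr1 at -0.64 (6.52, 5.61 and 7.18 FPKM against 3.59 and 4.59 FPKM, limma adjusted p = 0.224) and Ddr2 at 0.34 (1.95, 2.97 and 3.30 FPKM against 3.25 and 3.56 FPKM), both tyrosine kinases activated by collagen. Basement membrane partners, the laminins, nidogens and perlecan among them, had 8 of 12 below 0 with a median of -0.11, from Lamb3 at -0.49 to Pxdn at 0.11. Lamb3 was 2.11, 1.44 and 2.57 FPKM in WT control and 0.516 and 3.51 FPKM in skmNrip1-/- libraries, which lay on either side of the controls. Ligands and regulators of collagen synthesis, including the TGF-beta pathway, had 10 of 18 below 0 with a median of -0.07, from Scx at -1.18 to Egr1 at 0.57. At an unadjusted p of 0.05 or less there were 0 of 8, 1 of 15, 1 of 10, 1 of 8, 1 of 12 and 4 of 18 genes in these 6 lists, in the order given here, beside the 11.9% of all genes. Named after their values were seen, these were Thbs4, Egr1 and Ccn2 among those higher and Mmp15, Ddr1, Hspg2, Scx and Fgf2 among those lower.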

How the data were processed

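RNA-seq was analysed from TA muscle of 3 WT control and 2 skmNrip1-/- libraries. The labels do not say whether each library is 1 mouse, so the p-values measure the spread between libraries. RNA was extracted as total RNA and libraries were made with a NEBNext Ultra kit. The authors quantified reads with Salmon 1.10.2 on mm10, summarized them with tximport and deposited FPKM per gene and library; the FPKM computation, annotation release and strand setting are not given in the sources used here. The deposited table also holds the authors' DESeq2 1.44.0 log2 fold changes and adjusted p-values, which were not used. The deposited FPKM are not counts and absolute depth is unknown, so no counting intervals are given.

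The test was limma (version 3.58.1, under R 4.3.3) with lmFit and trended eBayes on log2(FPKM + 0.1), without covariates, in genes whose mean reached 0.5 FPKM, and p-values were adjusted by Benjamini-Hochberg over all of them. The fold change on this scale understates the change of low genes. The step was tested on simulated data. Positions are from GENCODE M21 (GRCm38), which held all 42 gene IDs, and promoter windows from RefSeq (GRCm38.p6). Col1a1 and 8 other collagen genes had no window. Exons of 9 of the 25 tested genes overlap another gene. Python 3.11.15, pandas 2.3.3, numpy 2.4.6 and matplotlib 3.10.9 were used.

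The members and lists were chosen with earlier results of these data known. Values per library are given for the 4 highest genes of the fibrillar, basement membrane, beaded filament and FACIT classes, any called or with an unadjusted p of 0.05 or less, the highest and lowest log2 fold change of each group, the junction collagens Col13a1, Col19a1, Col22a1 and Col25a1, and Nrip1. Of each list, the highest and lowest log2 fold change are named, some with library values; other genes were added after their values were seen. Alternatives comprised other pseudocounts (1 and 0.01) and minima (none and 1 FPKM), TPM with or without mtDNA-encoded genes, untrended or robust eBayes, a replicate block, other call thresholds, and leaving out each library.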

Additional observations from a re-analysis of the deposited data

How the results depend on the processing

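Collagen calls stayed at 0 in both directions under every alternative, and the lowest adjusted p of a collagen gene in any of them was 0.0653. The sign of the log2 fold change was the same in up to 14 alternatives for 8 of the 25 tested genes (Col4a2, Col5a3, Col7a1, Col8a1, Col9a1, Col15a1, Col20a1 and Col24a1), and it differed between the fits without skmNrip1-/- replicate 1 and without replicate 2 for 15. Over all genes, the calls were 29 higher and 59 lower after rescaling to TPM, 22 and 3 without the trend, 18 and 4 with the replicate block, 798 and 647 at an unadjusted p of 0.05, and 6 to 51 and 2 to 15 without 1 library. In the pathway and marker lists, 1 gene was called lower under TPM (Actn3), 1 higher with the block or without WT control replicate 3 (Myl2), 1 lower without skmNrip1-/- replicate 2 (Ibsp), 5 higher and 9 lower at an unadjusted p, and 0 to 1 in each direction without 1 library. Nrip1 was not called without the trend, with the block, or without WT control replicate 3 or either skmNrip1-/- library.

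Rescaling to TPM, in which mtDNA-encoded transcripts take a larger share in skmNrip1-/- libraries, moved the median of all genes to -0.29. It turned the signs of Col1a1 (-0.11), Col1a2 (-0.039), Col3a1 (-0.29), Col5a1 (-0.28), Col5a2 (-0.15), Col6a1 (-0.20), Col6a2 (-0.25), Col6a6 (-0.12), Col16a1 (-0.23) and Col18a1 (-0.21) and gave medians of -0.15 for fibrillar, -0.42 for basement membrane and -0.24 for other collagen genes. Without mtDNA-encoded genes Col14a1 was 0.074. With a pseudocount of 0.01 Col14a1 was 0.0048, and with 1 Col11a1 was 0.13.

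Replicates 1 and 2 of the groups share a number and come from different libraries with no stated pairing, and the correlation of their deviations from the group means was 0.065 and 0.095. The replicate block fits WT control replicate 3 by itself, so it equals leaving that library out in its fold changes. With it, Col4a1 was 0.038, Col11a1 0.10, Col14a1 0.36 and the median of the other collagen genes 0.26. 

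Without 1 library each, the range was -1.80 to 1.5 for Col11a1, -0.46 to 1.05 for Col11a2, -2.0 to 1.18 for Col12a1, -0.34 to 0.36 for Col14a1, -0.57 to 0.67 for Col16a1, -0.0099 to 0.21 for Col18a1, -0.62 to 0.99 for Col1a1, -0.45 to 0.97 for Col1a2, -0.78 to 0.48 for Col22a1, -0.22 to 0.24 for Col3a1, -0.19 to 0.038 for Col4a1, -0.23 to 0.27 for Col5a1, -0.21 to 0.50 for Col5a2, -0.12 to 0.28 for Col6a1, -0.17 to 0.25 for Col6a2, -0.40 to 0.18 for Col6a3 and -0.051 to 0.31 for Col6a6. The medians ranged from -0.28 to 0.88 (fibrillar), -0.20 to -0.0011 (basement membrane) and -0.062 to 0.26 (other). With 1 skmNrip1-/- library left, it is assumed to vary like the controls. Beyond the settings named, the cause of these shifts was not tested. Depth is unknown, and the low levels of genes under the minimum limit what their fit can show.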
